A study of Homo sapiens with 5 samples.

Results

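The ABC transporter family was examined in cells of the human glioblastoma line U87 MG, comparing libraries of CD133-positive cells with libraries of the line itself. Members were the protein-coding rows of the deposited gene table whose symbol was ABC, a subfamily letter from A to G and a number. This gave 45 genes of 46427 in the table. Because the choice went by symbol, the ABC genes TAP1, TAP2 and CFTR, the pseudogenes and the read-through gene ABCF2-H2BE1 were not members. There were 3 sorted libraries, titled f2n11_csc 1 to 3, whose labels give the genotype as cancer stem cells and the treatment as CD133 positive. There were 2 control libraries, titled u87_control 2 and 3, labelled control with no treatment. All 5 are U87 MG, an established line, and a CD133-negative or mock-sorted library was not analysed here, so the sort and CD133 status cannot be told apart. The meaning of the code f2n11 is not given, and nothing in the labels says that replicates came from separate cultures. The p-values therefore measure only the spread between these libraries, which may be technical.

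ABC proteins bind and hydrolyse ATP on a pair of conserved cytoplasmic domains, and most use that energy to move a substrate across a membrane. Some members of the B, C and G subfamilies export drugs and drug conjugates and are known for multidrug resistance in tumours, ABCB1 and ABCG2 above all in gliomas and at the blood-brain barrier. Most A members, several G members and the peroxisomal D members carry lipids, and the E and F members act on ribosomes and transport nothing.

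Library depth was 17716823 to 27335199 counts in sorted libraries and 29137978 and 29841238 in controls, and members drew 12594 to 31358 of them in sorted libraries and 38618 and 43824 in controls. Sorted library 3 stood apart. The 7SL RNA genes took 24.4% of its counts, against 10.9% and 12.01% in sorted libraries 1 and 2 and 6.29% and 5.71% in controls 2 and 3 (the widest 95% Wilson interval of such a share spanned 0.0439 percentage points). The mesenchymal and glioma genes VIM and CD44 were abundant in every library, with 5710.1 to 9559 and 522 to 738 normalised CPM (counts scaled to library size by TMM) in sorted libraries and 3726 and 4343, and 479 and 477, in controls 2 and 3. The glial and neural stem cell markers GFAP, S100B and SOX2 had 12 counts or fewer in any library. The list of 9 glioma and neural markers also held NES, OLIG2, L1CAM and FABP7. Of the 9, 5 had enough counts for the test below, with log2 fold changes from -1.03 to 1.88. In 4 of these 5 all sorted libraries lay above both controls, as in 22.7% of all tested genes. EdgeR called 1 of the 5 higher and 0 lower, against 2.2% and 2.4% of all tested genes. PROM1, the gene of CD133, had 7, 0 and 0 counts in sorted libraries and 12 and 0 in controls.

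Of the 45 members, 30 had enough counts to be tested, 6 had a few counts, and 9 had 0 counts in all 5 libraries. The test was edgeR's quasi-likelihood test over 16304 genes, with a threshold of 0.05 on the Benjamini-Hochberg adjusted p. ABCC2 and ABCA4 rose in sorted cells and ABCC4 fell, which was 2 higher and 1 lower of the 30. Across all tested genes 4.61% were called, 2.2% higher and 2.4% lower. The median log2 fold change of the 30 was -0.03, against 0.00 over all tested genes. Single values ran from -4.37 for ABCA3, which had enough counts for the test in the controls alone, to 3.22 for ABCA4. In 16 of the 30 members the sorted libraries lay wholly above or wholly below both controls, 7 above and 9 below. Of all tested genes 50.4% did so, 22.7% above and 27.7% below. In such bulk RNA, fewer cells that express a gene and less RNA per cell cannot be told apart. Without sorted library 3, 8 members were higher and 8 lower of 30. The higher were ABCA2, ABCA4, ABCB6, ABCB9, ABCC1, ABCC2, ABCC3 and ABCF3. The lower were ABCA3, ABCA5, ABCB10, ABCC4, ABCC9, ABCE1, ABCF2 and ABCG2. In that fit 32.2% of all genes were called, 15.4% higher and 16.8% lower. Without sorted library 2, ABCC2 alone of the members was called, with 12 higher and 7 lower of 15576 genes. Without control 2, control 3 or sorted library 1, edgeR called 0 members, with 2 higher and 3 lower members at an unadjusted p under 0.05 without either control and 3 higher and 7 lower without sorted library 1. Those fits called 0 genes of the whole table. The share of all genes with an unadjusted p under 0.05 was 10.6% when control 2 was left out, 10.4% for control 3 and 23.5% for sorted library 1.

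**Figure D1:**
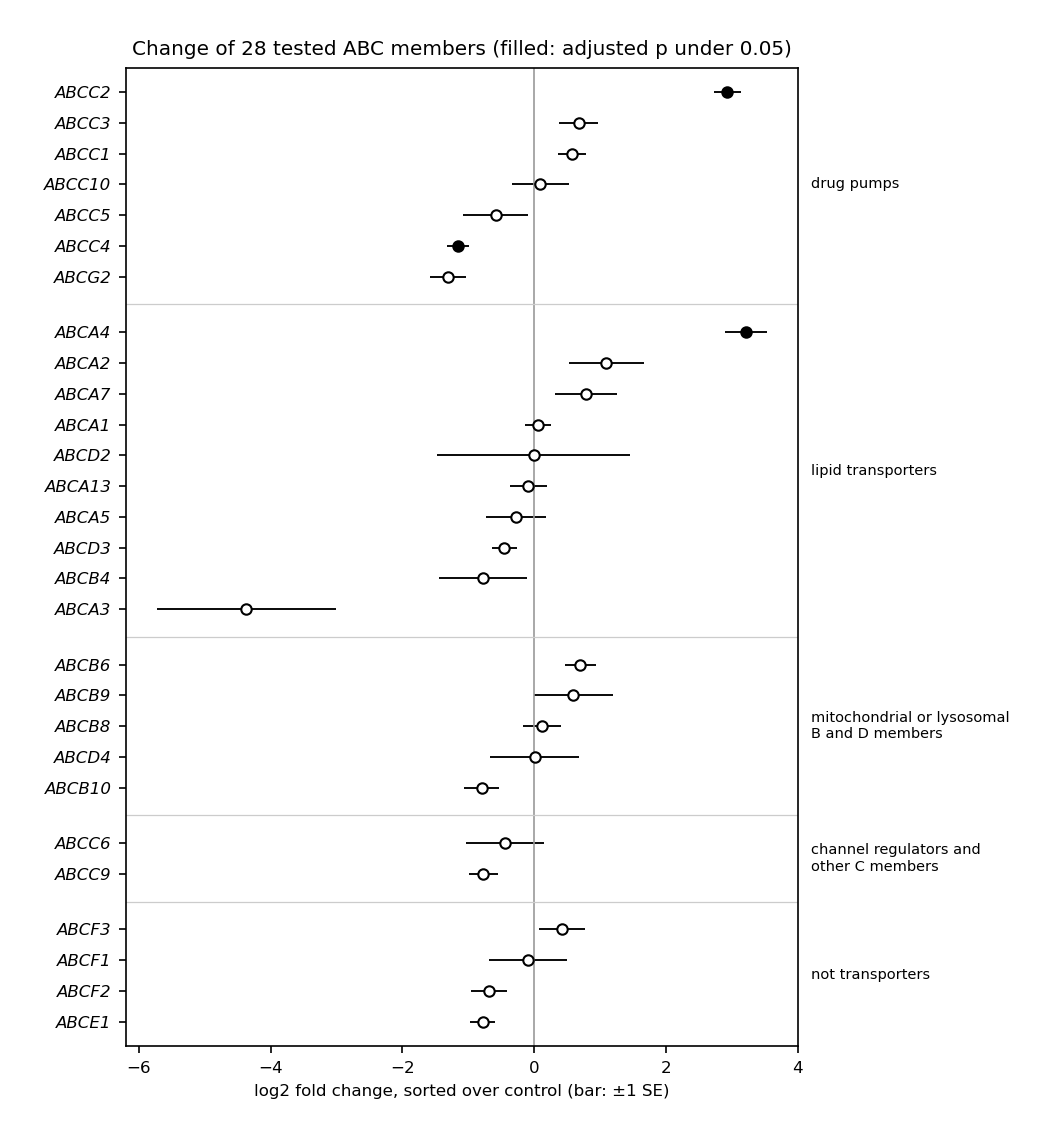
Log2 fold change of 28 of the 30 tested members, sorted over control libraries, in groups by role. Points are edgeR estimates, bars are 1 SE either side, and filled points passed an adjusted p of 0.05. ABCC2 and ABCA4 lie to the right of 0 and ABCC4 to the left.

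ABCC2 encodes MRP2, an exporter of glutathione, glucuronide and sulfate conjugates that is best known from the bile canaliculus and that also carries platinum and anthracycline drugs. The gene (ID 1244) lies at chr10:99782640-99852594 in GRCh38.p14. Its level was 146, 169.7 and 136 CPM in sorted libraries 1, 2 and 3, compared with 20.1 and 19.4 CPM in controls 2 and 3. Every sorted library lay above both controls, and each group was tight around its own mean. The means were 150.5 ± 17.4 CPM in sorted cells and 19.8 ± 0.519 CPM in controls (SD, n = 3 and 2). The log2 fold change was 2.93 ± 0.21 (SE, edgeR's quasi-likelihood test, adjusted p = 0.00781), a 7.62-fold higher level. Without one library at a time it stayed between 2.84 and 3.00. The adjusted p was 0.0634 without sorted library 1 and 0.174 and 0.181 without control 2 and control 3. On the authors' TPM (counts scaled to transcript length and depth, which allows levels of different genes to be compared), ABCC2 ranked 3, 2 and 3 in the family in sorted libraries 1, 2 and 3 and 14 in both controls. A processed pseudogene on the opposite strand, NANOGP6, overlaps it in GENCODE v29.

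ABCC4 encodes MRP4, an exporter of cyclic nucleotides, prostaglandins and nucleotide analogue drugs. The gene (ID 10257) lies at chr13:95019835-95301451. Its level was 42.4, 43.0 and 39.3 CPM in sorted libraries 1, 2 and 3, compared with 91.2 and 93.6 CPM in controls 2 and 3. The groups did not overlap, and the libraries of each group lay close together. ABCC4 fell by 1.15 ± 0.16 on the log2 scale (SE, edgeR's quasi-likelihood test, adjusted p = 0.0251), a 2.22-fold lower level. The adjusted p was 0.0819 to 0.308 when any library other than sorted library 3 was left out, and the log2 fold change was then -1.18 to -1.15. In TPM rank ABCC4 stood at 7, 9 and 6 in sorted libraries and at 5 in both controls, below ABCC2 in every sorted library and above it in both controls.

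The promoters of this pair of related C members are shown because the genes moved in opposite directions and differ in base composition. The sequences are RefSeq's on GRCh38.p14, the 250 bases before the gene's start, 5′ to 3′ on the gene's strand, with each CG dinucleotide in capitals. ABCC2 is read on the plus strand at chr10:99782390-99782639 and ABCC4 on the minus strand at chr13:95301452-95301701.
ABCC2: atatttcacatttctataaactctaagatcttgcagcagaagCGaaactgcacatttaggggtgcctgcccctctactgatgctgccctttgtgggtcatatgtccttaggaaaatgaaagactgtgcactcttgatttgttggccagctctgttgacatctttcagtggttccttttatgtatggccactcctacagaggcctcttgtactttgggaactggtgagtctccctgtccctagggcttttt
ABCC4: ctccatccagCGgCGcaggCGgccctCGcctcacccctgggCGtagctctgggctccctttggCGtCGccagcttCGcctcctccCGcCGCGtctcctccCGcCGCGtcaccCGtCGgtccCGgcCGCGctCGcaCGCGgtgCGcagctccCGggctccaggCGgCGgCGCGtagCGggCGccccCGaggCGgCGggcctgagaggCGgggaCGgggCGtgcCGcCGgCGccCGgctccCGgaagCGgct
The ABCC2 window holds 1 CG dinucleotide and 45.6% G and C, and the ABCC4 window 42 and 80.4%. Among 15843 protein-coding genes with a window in the same table the median was 17 CG dinucleotides, and 3.13% of them had fewer than ABCC2 and 98.3% fewer than ABCC4. The core of the antioxidant response element, TGACNNNGC on either strand, had 0 matches in the ABCC2 window and 1 in the ABCC4 window, and 11.5% of coding windows hold one. The core of the xenobiotic response element, GCGTG on either strand, had 0 and 2 matches, and 39.2% of coding windows hold one. Promoter methylation was not measured in these data.

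RefSeq's table held a window for 35 of the 45 members. In 30 it ended at the gene's own start, and in 5, ABCA9, ABCB9, ABCC10, ABCD3 and ABCG5, it lay inside the gene, so these 5 were left out here. The 21 tested members of the 30 had a median of 21 CG dinucleotides, with a range of 1 to 42. The 9 that were not tested had a median of 2 and a range of 0 to 19. Of the tested 21, 3 had 2 CG dinucleotides or fewer, namely ABCC2, ABCG2 and ABCA13, and of the untested 9, 6 did. Low-CG windows were thus more common among the members with few or no counts, a description over genes with no test.

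**Figure D2:**
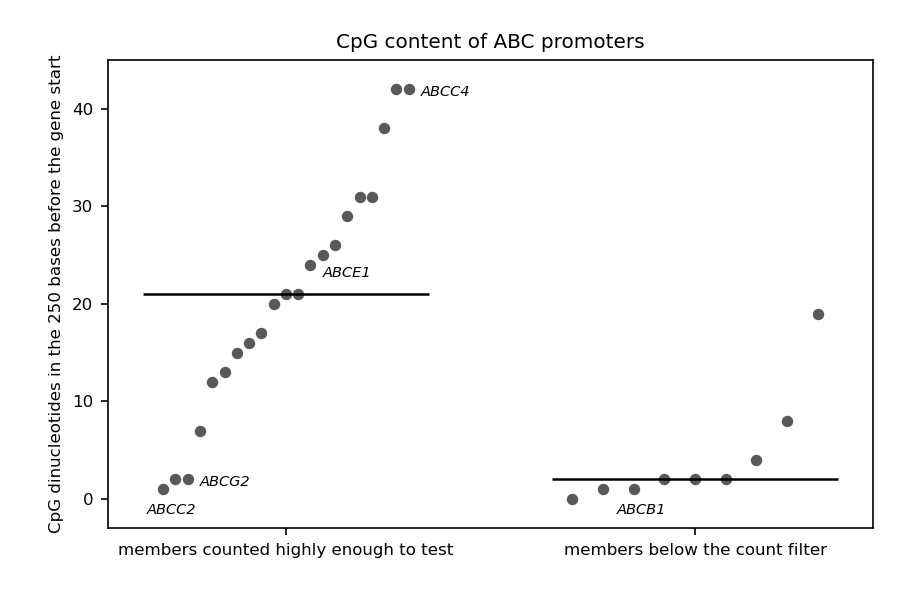
CG dinucleotides in the 250 bases before the gene's start of 30 members, by whether the member had enough counts to be tested. Each point is a gene and the line is the group's median, 21 for tested and 2 for untested members. ABCC2 and ABCG2 sit at the low end of the tested members and ABCC4 at the high end.

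The other drug pumps did not pass edgeR's test. DESeq2 and limma-voom called ABCG2 among them, at log2 fold changes of -1.29 and -1.36 (adjusted p = 0.00179 and 0.0279). ABCG2 was called in 7 of 14 alternative fits, and ABCC4 in 8 of 14. ABCG2 encodes BCRP, the pump behind the side population of stem-like cells, and lies at chr4:88090264-88231626. Its level was 10.2, 8.35 and 13.2 CPM in sorted libraries 1, 2 and 3, compared with 23.2 and 28.9 CPM in controls 2 and 3. All sorted libraries lay below both controls. The log2 fold change was -1.31 ± 0.27 (SE, edgeR's quasi-likelihood test, adjusted p = 0.0528). It was -1.50 with an adjusted p of 0.00119 without sorted library 3, and from -1.47 to -1.15 with an adjusted p of 0.119 to 0.413 without any one of the others.

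ABCC1 encodes MRP1, an exporter of leukotriene C4 and glutathione conjugates. It had 13.7, 14.7 and 14.3 CPM in sorted libraries against 9.59 and 9.45 CPM in controls. The groups did not overlap, and the log2 fold change of 0.58 ± 0.21 had an adjusted p of 0.159 by edgeR. ABCC3, which encodes MRP3, a basolateral exporter of glucuronides, had 15.4, 20.3 and 12.03 CPM in sorted libraries against 8.87 and 11.1 CPM in controls, a log2 fold change of 0.68 ± 0.30. Sorted library 3 lay closest to the controls for this gene.

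ABCC5, which encodes MRP5 and carries cyclic nucleotides, had 12.9, 9.38 and 3.71 CPM in sorted libraries against 14.5 and 11.6 CPM in controls. Its groups overlapped through sorted library 1, and the log2 fold change was -0.59 ± 0.49. ABCC10, which encodes the taxane exporter MRP7, had 3.51, 5.09 and 2.27 CPM in sorted libraries against 3.03 and 3.81 CPM in controls. It showed no separation, with a log2 fold change of 0.09 ± 0.43. The adjusted p values of ABCC3, ABCC5 and ABCC10 were 0.221, 0.510 and 0.921 by edgeR.

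ABCB1, the gene of P-glycoprotein, and ABCB5, a marker of slow-cycling melanoma cells, had 0 counts in all 5 libraries. A count of 0 allows up to 3 counts, or 0.110 to 0.227 CPM per sorted library and 0.0890 and 0.0822 CPM in controls, for counting error only. ABCC11, an exporter of steroid conjugates, had 7 counts in control 2 and 0 elsewhere. Among the 10 drug pumps, 7 were thus tested, 1 rose, 1 fell and 5 did not pass. Without sorted library 3, 3 were higher and 2 lower, against 15.4% and 16.8% of all genes. The summed TPM of the drug pumps was 46.3, 52.3 and 20.1 in sorted libraries against 47.0 and 54.0 in controls. ABCC2 supplied 27.7, 33.8 and 11.7 of it in sorted libraries and 5.47 and 5.29 in controls. ABCC4 supplied 7.81, 7.37 and 4.47 of it in sorted libraries and 23.2 and 26.4 in controls. TPM carries no TMM scaling, and on log2(TPM + 1) the median log2 fold change over all tested genes was -0.64. The TPM sums therefore show the make-up of each library, and their differences between libraries are not changes of the pumps alone.

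**Figure D3:**
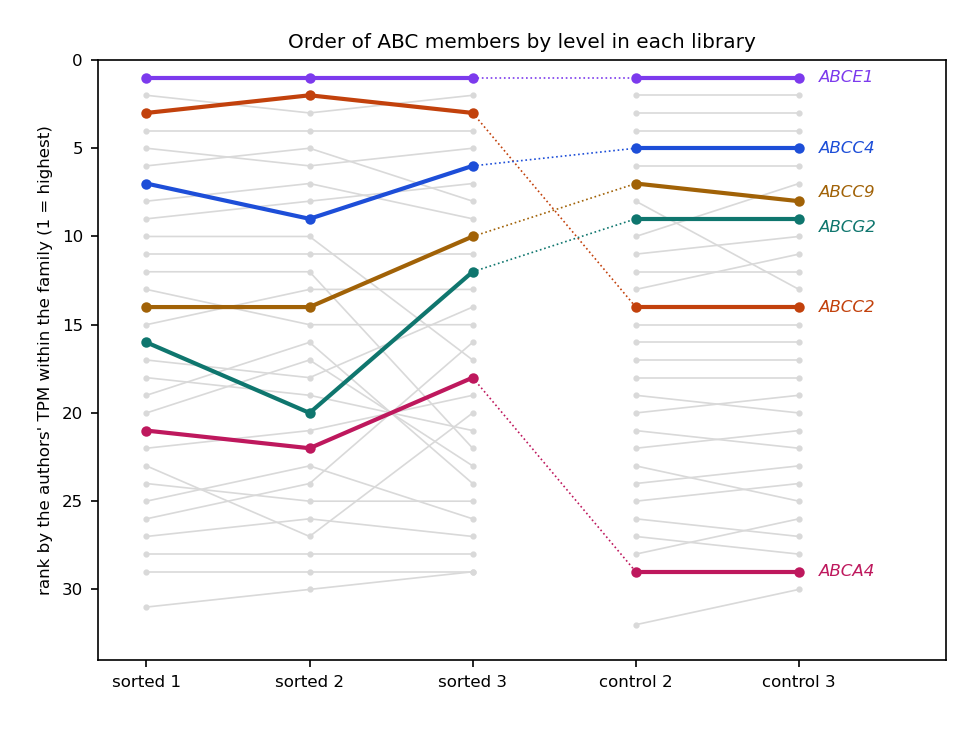
Rank of each tested member by the authors' TPM among the 45 members, with 1 the highest, in 3 sorted and 2 control libraries. Grey lines are members not named. ABCE1 held rank 1 in all 5 libraries, ABCC2 stood at rank 2 or 3 in sorted libraries and 14 in controls, and ABCA4 at 18 to 22 in sorted libraries and 29 in controls.

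Among the lipid transporters, ABCA4 was the member that passed. It encodes the flippase that clears retinal from photoreceptor discs and is mutated in Stargardt disease. The gene (ID 24) lies at chr1:93992834-94121148, and no other gene overlaps it in GENCODE v29. Its level was 10.6, 10.4 and 11.04 CPM in sorted libraries 1, 2 and 3, compared with 0.920 and 1.37 CPM in controls 2 and 3. The raw counts were 191, 284 and 146 in sorted libraries and 31 and 50 in controls. All sorted libraries lay above both controls and close to each other, sorted library 3 included. The means were 10.7 ± 0.323 CPM in sorted cells and 1.14 ± 0.318 CPM in controls (SD, n = 3 and 2), and the log2 fold change was 3.22 ± 0.33 (SE, edgeR's quasi-likelihood test, adjusted p = 0.0147). It stayed between 2.95 and 3.52 without one library at a time, and the adjusted p was 0.0599 to 0.222 without any library other than sorted library 3. In TPM it stayed a low-level member, at 1.51, 1.42 and 0.705 in sorted libraries and 0.180 and 0.301 in controls.

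ABCA1, which loads cholesterol and phospholipid onto apolipoprotein A-I, was the most abundant lipid transporter in all 5 libraries. It had 323, 319 and 268 CPM in sorted libraries against 279 and 304 CPM in controls. Sorted library 3 lay below both controls and sorted libraries 1 and 2 above both, and the log2 fold change was 0.06 ± 0.19 (edgeR's adjusted p = 0.892). ABCG1 and ABCG4, which pass cholesterol to lipoprotein particles, had 0 counts in all 5 libraries, as did the paired sterol exporters ABCG5 and ABCG8.

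ABCA2, a lysosomal lipid transporter of neural cells, had 12.6, 19.1 and 4.84 CPM in sorted libraries against 4.63 and 6.82 CPM in controls. Sorted library 3 lay between the controls, and the log2 fold change of 1.10 ± 0.57 became 1.47 with an adjusted p of 0.00583 by edgeR once that library was left out. ABCA3, the surfactant lipid transporter, had 6, 0 and 0 counts in sorted libraries and 92 and 72 in controls. The groups did not overlap, but ABCA3 had enough counts for the test in the controls alone, so this separation was not independent of the filter. Its log2 fold change of -4.37 ± 1.37 had an adjusted p of 0.116 by edgeR. Its level was 0.334, 0 and 0 CPM in sorted libraries and 2.73 and 1.97 CPM in controls. The antisense pseudogene ABCA17P overlaps ABCA3 and had 0, 19 and 14 counts in sorted libraries and 0 and 0 in controls.

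ABCA5, a lysosomal and endosomal lipid transporter, had 5.18, 7.58 and 15.1 CPM in sorted libraries against 11.1 and 11.2 CPM in controls, so that sorted library 3 lay above the controls and the other sorted libraries below them. ABCA7, a phospholipid transporter linked to Alzheimer disease, had 2.90, 3.15 and 1.66 CPM in sorted libraries against 1.63 and 1.37 CPM in controls, with sorted library 3 next to the controls. ABCA13, a very large A member, had 12.5, 8.57 and 8.24 CPM in sorted libraries against 10.1 and 10.7 CPM in controls, and its groups overlapped. ABCA5, ABCA7 and ABCA13 were at -0.27, 0.78 and -0.09 on the log2 scale (edgeR's adjusted p = 0.760, 0.352 and 0.885). ABCB4, the phosphatidylcholine floppase of bile, had 0.780, 0.659 and 1.59 CPM in sorted libraries against 1.10 and 2.33 CPM in controls, and its groups overlapped (log2 fold change -0.78, edgeR's adjusted p = 0.516).

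The peroxisomal D members import fatty acyl groups for beta-oxidation. ABCD3, which takes branched chains and bile acid precursors, had 49.4, 43.4 and 37.3 CPM in sorted libraries against 59.0 and 60.0 CPM in controls. All sorted libraries lay below both controls, with a log2 fold change of -0.45 ± 0.19 (edgeR's adjusted p = 0.201). ABCD2 was near the detection limit, with 14, 8 and 0 counts in sorted libraries and 8 and 18 in controls. Its log2 fold change was -0.01 ± 1.47 (edgeR's adjusted p = 0.995). Of 21 lipid transporters, 11 were tested, 1 rose, 0 fell and 10 did not pass, and the middle log2 fold change was -0.01. Without sorted library 3, 2 were higher and 2 lower, against 15.4% and 16.8% of all genes. With no adjustment, 4 of the 30 members tested were higher and 7 lower at p under 0.05, where 25.8% of all tested genes were under it. DESeq2 called 1 lipid transporter lower, ABCA3, which had enough counts for the test in the controls alone. It called 1331 of 16304 genes lower.

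**Figure D4:**
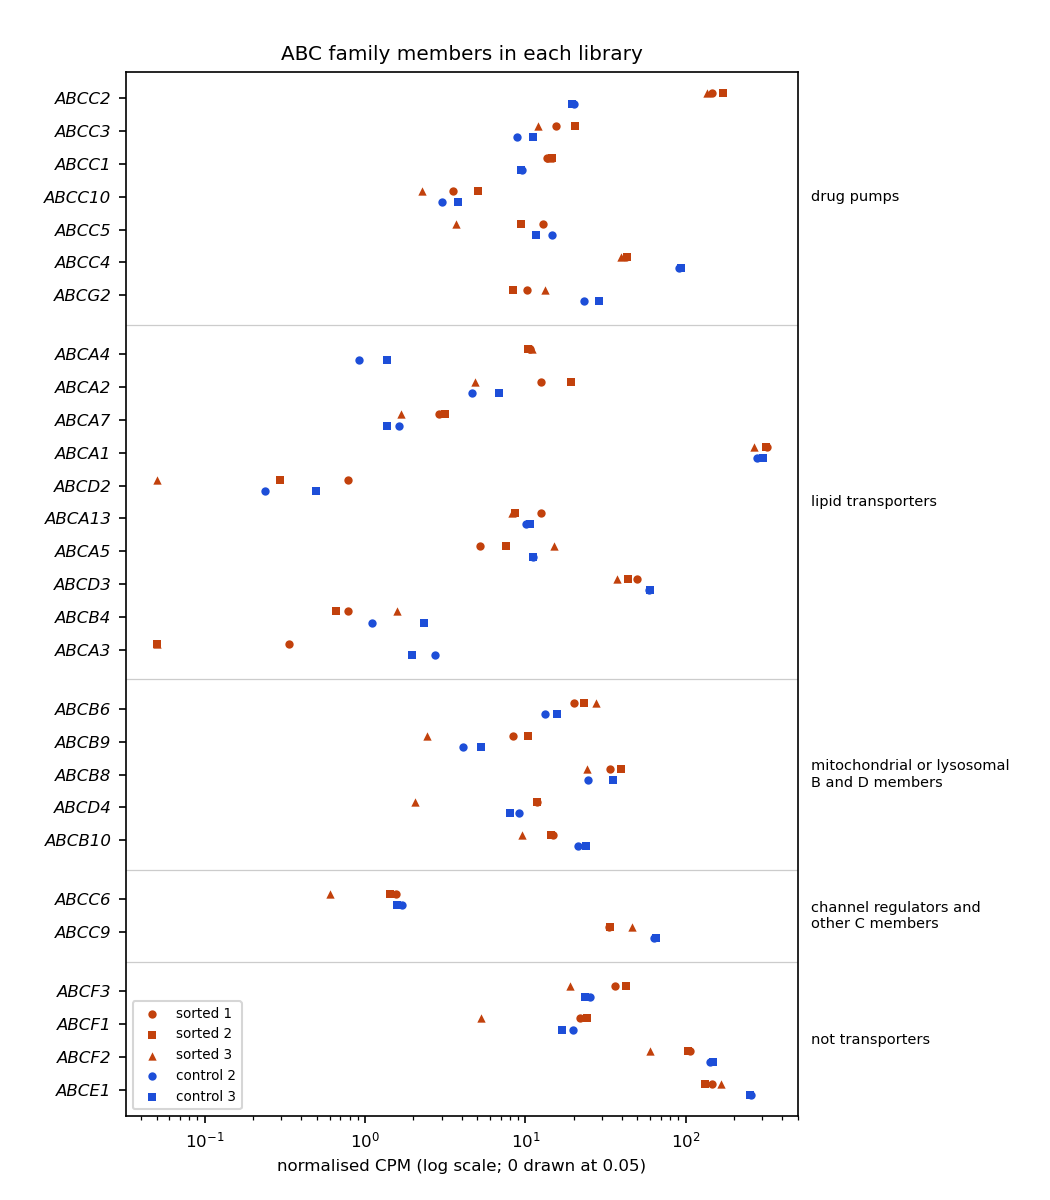
Normalised CPM of 28 of the 30 tested members in 3 sorted libraries (orange) and 2 control libraries (blue) on a log axis, in groups by role. The orange points of ABCC2 and ABCA4 lie to the right of the blue points and those of ABCC4 and ABCG2 to the left. Orange triangles are sorted library 3, which lies apart from the other sorted libraries for ABCD4 and ABCF1.

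None of the mitochondrial and lysosomal members of the B and D subfamilies passed, with 0 of 6 called by edgeR, DESeq2 or limma-voom. By edgeR 2 of them had an unadjusted p under 0.05, where 25.8% of all tested genes did. Without sorted library 3 edgeR called 3 of them, against 32.2% of all genes. ABCB6, a porphyrin-linked transporter, had 20.1, 23.1 and 27.7 CPM in sorted libraries against 13.3 and 15.7 CPM in controls. ABCB10, which is needed for haem synthesis, had 14.9, 14.4 and 9.53 CPM in sorted libraries against 21.3 and 23.8 CPM in controls. All sorted libraries lay above both controls for ABCB6 and below both for ABCB10, at 0.70 ± 0.24 and -0.80 ± 0.26 on the log2 scale (edgeR's adjusted p = 0.132 and 0.128). ABCB8, of the mitochondrial inner membrane, had 33.7, 39.4 and 24.1 CPM in sorted libraries against 24.4 and 35.2 CPM in controls. Its groups overlapped, with a log2 fold change of 0.12 ± 0.29 (edgeR's adjusted p = 0.839).

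The lysosomal peptide transporter ABCB9 had 8.36, 10.4 and 2.42 CPM in sorted libraries against 4.10 and 5.31 CPM in controls. ABCD4, which exports cobalamin from lysosomes, had 11.8, 11.9 and 2.04 CPM in sorted libraries against 9.11 and 8.05 CPM in controls. For both genes sorted libraries 1 and 2 lay above the controls and sorted library 3 below them. ABCB9 was at a log2 fold change of 0.60 ± 0.59, and at 1.00 with an adjusted p of 0.0177 by edgeR without sorted library 3. ABCD4 was at 0.01 ± 0.68, and at 0.47 with an adjusted p of 0.102 without it.

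ABCC9 encodes SUR2, the sulfonylurea receptor that forms potassium channels with KCNJ8 or KCNJ11. It had 33.0, 33.7 and 46.3 CPM in sorted libraries against 63.3 and 65.0 CPM in controls. All sorted libraries lay below both controls, with a log2 fold change of -0.77 ± 0.21 (edgeR's adjusted p = 0.0926). DESeq2 called ABCC9 at -0.75 (adjusted p = 0.0375), and edgeR without sorted library 3 at -0.94 (adjusted p = 0.000903). It was called in 3 of 14 alternative fits. KCNJ8 had 0.724, 0.696 and 4.99 CPM in sorted libraries against 0.890 and 0.493 CPM in controls, and ABCC8 and KCNJ11 had 0 counts throughout. ABCC6, mutated in pseudoxanthoma elasticum, had 1.56, 1.43 and 0.605 CPM in sorted libraries against 1.69 and 1.59 CPM in controls. Its log2 fold change was -0.44 ± 0.59 (edgeR's adjusted p = 0.700). It shares sequence with the pseudogenes ABCC6P1 and ABCC6P2, and counts could be split between them. ABCC6P1 had 21, 17 and 48 counts in sorted libraries and 0 and 0 in controls, and the sum of the 3 loci was 3.90, 3.33 and 5.22 CPM in sorted libraries against 2.11 and 1.78 CPM in controls.

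Among the ribosome-associated members, ABCE1, which splits the ribosome after termination, ranked 1 in the family by TPM in all 5 libraries, at 39.1, 33.8 and 19.99 TPM in sorted libraries and 96.0 and 105 TPM in controls. Its CPM was 145, 131 and 166 in sorted libraries against 255 and 252 in controls. The groups did not overlap, and the log2 fold change of -0.78 ± 0.19 missed the threshold (edgeR's adjusted p = 0.0666). DESeq2 and limma-voom called it, at -0.77 and -0.79 (adjusted p = 0.00441 and 0.0437), and over all 14 refits its adjusted p ran from 0.000565 to 0.461. ABCE1 overlaps the opposite-strand genes ANAPC10 and OTUD4 in GENCODE v29, and the strand setting of the counting is not given.

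ABCF2 had 106, 103 and 59.5 CPM in sorted libraries against 141 and 147 CPM in controls, a log2 fold change of -0.69 ± 0.28 (edgeR's adjusted p = 0.190). Its read-through gene ABCF2-H2BE1 had 3.62, 5.86 and 32.7 CPM in sorted libraries against 0.594 and 1.53 CPM in controls. Sorted library 3 held the lowest ABCF2 value and the highest read-through value, and counts could be split between these rows. Summed, they had 109.3, 109.2 and 92.2 CPM in sorted libraries against 142 and 149 CPM in controls. ABCF1, which binds the initiation factor eIF2, had 22.0, 24.3 and 5.29 CPM in sorted libraries against 19.8 and 16.95 CPM in controls, and ABCF3 36.4, 42.4 and 19.1 CPM in sorted libraries against 25.3 and 23.5 CPM in controls. For both genes sorted library 3 alone lay below the controls. The log2 fold changes were -0.09 ± 0.59 for ABCF1 and 0.42 ± 0.35 for ABCF3 (edgeR's adjusted p = 0.947 and 0.509), and ABCF3 was at 0.69 with an adjusted p of 0.00760 by edgeR without sorted library 3.

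Sorted library 3 was the lowest of the sorted libraries in 20 of the 30 tested members, where 43.1% of all tested genes had it lowest, and it was the highest in 7. In 5 members, ABCA1, ABCB9, ABCD4, ABCF1 and ABCF3, sorted libraries 1 and 2 lay above both controls and sorted library 3 below both. The shares of all tested genes with library 3 highest, or split in this way, were not counted. On log2(CPM + 0.5), library 3 differed from the mean of the other sorted libraries by a median of -0.39 over the 30 members and -0.08 over 13013 protein-coding genes tested. The GC content of the longest coding transcript and this difference had a Spearman's rho of -0.41 over the 30 members and -0.13 over 12906 coding genes. Over the same genes the log2 fold change and GC content had a rho of 0.52 in the family and 0.31 in coding genes. These are descriptions over genes that share libraries, and the part of base composition in the fold changes was not tested. ABCC2 and ABCA4 have transcripts of 44.9% and 52.4% GC and ABCC4 one of 42.5%.

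**Figure D5:**
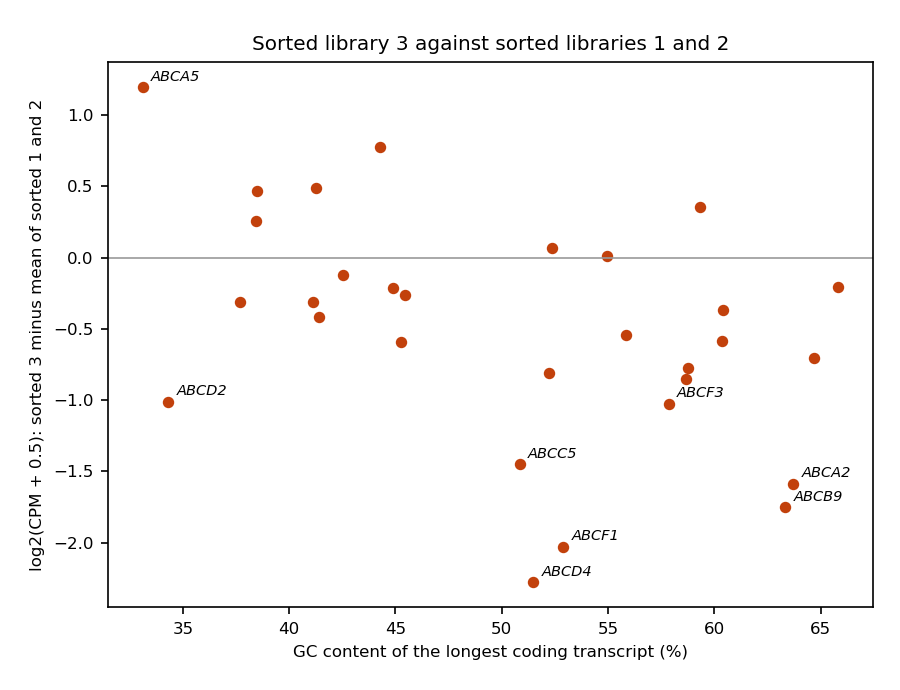
Difference of sorted library 3 from the mean of sorted libraries 1 and 2, in log2(CPM + 0.5), against transcript GC content for the 30 tested members, each a point. Most points lie below 0. ABCD4, ABCF1, ABCB9 and ABCA2 lie lowest and ABCA5 highest.

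By subfamily letter, the A members had 1 higher and 0 lower of 7 tested, the C members 1 higher and 1 lower of 8, and the B, D, E, F and G members 0 of 6, 4, 1, 3 and 1 by edgeR. At an unadjusted p under 0.05 the B, D, E, F and G members numbered 2, 0, 1, 1 and 1, and DESeq2 called ABCE1 and ABCG2 among them. Subfamilies A, B, C and D had median log2 fold changes of 0.06, 0.03, -0.17 and 0.00. Several members without counts lie beside each other. On chromosome 17, ABCA6, ABCA8, ABCA9 and ABCA10 had 8 counts or fewer in any library beside ABCA5. ABCC11 and ABCC12 on chromosome 16 and ABCG5 and ABCG8 on chromosome 2 had 0 counts in every sorted library. On chromosome 7, ABCB1 was at 0 beside a weakly counted ABCB4.

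Of 134 tested genes listed as partners of the family, 6 were called, or 4.48%, near the 4.61% of all tested genes. Of 14 tested sensors of xenobiotics and sterols, 1 was higher and 0 lower, and 6 were higher and 2 lower without sorted library 3. In that fit, which is also given for the lists below, 15.4% of all genes were higher and 16.8% lower. SREBF1, a lipid synthesis factor that sterol-sensing LXR receptors induce, had 19.5, 21.4 and 22.8 CPM in sorted libraries against 10.4 and 10.02 CPM in controls (log2 fold change 1.06, edgeR's adjusted p = 0.0485). The drug sensors NR1I2 and NR1I3, the bile acid sensor NR1H4 and the hepatic factor HNF4A had 0 counts in all 5 libraries. NFE2L2, which encodes NRF2, had 26.0, 21.7 and 28.2 CPM in sorted libraries against 42.9 and 37.1 CPM in controls (log2 fold change -0.66, edgeR's adjusted p = 0.114).

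Of 15 tested sterol efflux partners, 1 rose and 1 fell, and 3 were higher and 5 lower without sorted library 3. PLTP, which encodes the phospholipid transfer protein, had 119, 115 and 111 CPM in sorted libraries against 36.3 and 37.2 CPM in controls (log2 fold change 1.65, edgeR's adjusted p = 0.0147). SOAT1, which esterifies cholesterol for storage, had 32.0, 33.3 and 24.1 CPM in sorted libraries against 84.9 and 77.1 CPM in controls (log2 fold change -1.44, edgeR's adjusted p = 0.0256). Both genes had sorted libraries wholly to one side of the controls. Of 22 tested conjugating enzymes, which make substrates for the C subfamily, 2 were higher and 0 lower, and 4 were higher and 5 lower of 21 without sorted library 3. GSTA4 had 23.9, 26.1 and 43.8 CPM in sorted libraries against 9.08 and 8.13 CPM in controls, and SULT1A1 5.91, 6.74 and 6.05 CPM in sorted libraries against 0.772 and 1.53 CPM in controls, at 1.86 and 2.43 on the log2 scale (edgeR's adjusted p = 0.0405 and 0.0359). SULT1A1 resembles its paralogs closely, and reads could be split among them.

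Of 18 tested peroxisomal partners of the D members, 0 were higher and 1 lower, and 1 was higher and 4 lower without sorted library 3. ACBD5, a tether that binds very long chain acyl-CoA, had 19.3, 20.1 and 10.2 CPM in sorted libraries against 56.9 and 56.9 CPM in controls (log2 fold change -1.78, edgeR's adjusted p = 0.0385). By edgeR none of the tested genes was called in 5 other lists. These were 13 genes listed for non-ABC drug export and sequestration, 8 scaffold genes of apical pumps and 19 haem and iron-sulfur genes. The others were 10 cobalamin genes and 15 ribosome recycling genes. In the same order, 3, 1, 1, 2 and 3 of them had an unadjusted p under 0.05 (25.8% of all tested genes did), DESeq2 called 3, 1, 1, 0 and 1, and limma-voom 1, 1, 0, 0 and 0. Without sorted library 3 edgeR called 6, 3, 4, 5 and 6. The most abundant by mean TPM of both groups were MT2A and MVP, MSN and RDX, UROD and ISCU, MMADHC and CD320, and EIF2S2 and ETF1, with log2 fold changes from -0.52 to 0.78. EIF2S3 stood above ETF1 in the sorted libraries. The drug export and sequestration list also held genes that are not drug exporters, among them the receptor LRP1 and the uptake carriers SLC28A3 and SLCO4A1. Its 3 genes with an unadjusted p under 0.05 by edgeR were ATP7B, LRP1 and SLC28A3, at log2 fold changes of 2.09, 1.14 and 4.06. TAP1 and TAP2, the antigen peptide transporters, were at 0.28 and -0.08 on the log2 scale (edgeR's adjusted p = 0.596 and 0.856).

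Markers of other cell types were read beside these results. The 6 hepatocyte markers summed to 20.9 to 23.5 CPM in sorted libraries and 3.41 and 3.70 CPM in controls, moving with ABCC2. SERPINA1 gave 18.6 to 19.8 CPM of the sum in sorted libraries and 1.28 and 0.329 CPM in controls, while ALB and APOA1 had 0 counts in every sorted library and TTR and HNF4A 0 in all 5 libraries. The 9 leukocyte markers summed to 244 to 282 CPM in sorted libraries and 147 and 104 CPM in controls, nearly all CD68, with PTPRC at 3 counts or fewer. Of these, 4 were tested, all with a positive log2 fold change, from 0.03 to 7.17. The 6 epithelial markers summed to 4.40 to 6.66 CPM in sorted libraries and 2.26 and 1.51 CPM in controls. Of these, 3 were tested, 2 with a positive and 1 with a negative log2 fold change. The 4 endothelial markers summed to 2.57 to 4.32 CPM in sorted libraries and 6.95 and 6.82 CPM in controls. All 4 were tested, 2 with a positive and 2 with a negative log2 fold change. The 6 markers of fibroblasts and pericytes summed to 444 to 630.0 CPM in sorted libraries and 206 and 241 CPM in controls. The sum hides mixed directions. All 6 were tested, 3 with a positive and 3 with a negative log2 fold change, from -2.38 to 1.69 (median -0.04). By edgeR, 1 of 2 tested hepatocyte markers, 1 of 4 leukocyte and 1 of 3 epithelial markers were called higher, and 0 lower. Of the 4 endothelial markers 0 were called higher and 1 lower, and of the 6 fibroblast and pericyte markers 1 and 1. Over all tested genes 2.2% were called higher and 2.4% lower. The part of other cell types in the family's changes was not tested.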

How the data were processed

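RNA was measured by stranded total RNA sequencing of 3 sorted and 2 control libraries of U87 MG, per the labels' protocols. The submitters' processing notes list StringTie and the build GRCh38 and give neither a role. The sources used here name neither the aligner nor the versions nor the strand setting of the counting. The table the authors deposited held estimated counts per gene, in whole numbers and not normalised, with FPKM and TPM values that the authors deposited beside them. FPKM was not used. TPM served for levels between genes and in 2 refits.

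The main test used edgeR 4.0.16 (R 4.3.3). Low genes were removed with filterByExpr, TMM factors scaled the libraries, and the robust quasi-likelihood test compared sorted with control libraries, adjusted over all tested genes. CPM are TMM-normalised. SE is the absolute log2 fold change over the square root of F. Alternatives included DESeq2 1.42.0 and limma 3.58.1. The fits were checked on simulated counts. No library repeated another, the lowest chi-square per degree of freedom between libraries being 20.0. Coordinates came from RefSeq on GRCh38.p14, which matched 44698 of 46427 genes, and transcripts and overlaps from GENCODE v29.

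Members, roles and partner lists were chosen with earlier results of these data known. Values of 2 tested members are not reported here. Otherwise values in every library, and a log2 fold change where tested, were given for members past the threshold with or without sorted library 3. The same held for a fixed core of 25 members and for the 5 smallest changes. Some of these stand without their SE or adjusted p. Of each partner list, called genes or the 2 most abundant were named, and genes named beyond that were chosen after their values were seen.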

Additional observations from a re-analysis of the deposited data

How the results depend on the processing

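The 2 higher and 1 lower members, and the 359 higher and 392 lower genes, depend on the libraries. Leaving out each replicate in turn gave 0 to 8 higher and 0 to 8 lower members (0 to 3 and 0 to 2 drug pumps, 0 to 2 and 0 to 2 lipid transporters) and 0 to 2477 higher and 0 to 2695 lower genes. The lower members numbered 4 by library size alone (drug pumps 2), 2 with no filter on low counts (drug pumps 2), 5 by DESeq2 (drug pumps 2, lipid transporters 1), 3 by limma-voom (drug pumps 2) and 2 over protein-coding genes alone (drug pumps 2). All genes gave 113 higher by library size alone, which shifts the median over the whole table to -0.40 (log2), and 1429 higher and 1331 lower by DESeq2 and 617 and 873 by limma-voom. With log2(TPM + 1), 0 members were higher and 4 lower (drug pumps 0 and 2, lipid transporters 0 and 1), and 98 genes were higher and 1508 lower around a median of -0.64. With log2(TPM + 0.1), 0 members were higher and 1 lower (drug pumps 0 and 0, lipid transporters 0 and 1), and 60 genes were higher and 444 lower around a median of -0.94. At an adjusted p under 0.01, 1 member was higher and 0 lower (drug pumps lower 0, lipid transporters higher 0), with 9 genes higher and 5 lower. The causes were not tested. A replicate block on the shared numbers gave 2 higher and 0 lower members (drug pumps lower 0), 192 higher and 219 lower genes, and ABCD4 at -0.73. Same-numbered samples had deviations that correlated at 0.08 over 16304 genes, and the samples share only a number.

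Members with an uncalled change turned direction as follows, in log2 fold change. Library size alone gave ABCA1 -0.32, ABCB8 -0.24, ABCC10 -0.25 and ABCD4 -0.28, and ABCD4 was -0.015 with no filter and -0.20 by limma-voom. With log2(TPM + 1) the values were ABCA1 -0.89, ABCA7 -0.0057, ABCB6 -0.23, ABCB8 -0.70, ABCB9 -0.23, ABCC1 -0.25, ABCC10 -0.35, ABCC3 -0.17, ABCD4 -0.77 and ABCF3 -0.54. With log2(TPM + 0.1) they were ABCA1 -0.92, ABCA7 -0.11, ABCB6 -0.27, ABCB8 -0.82, ABCB9 -0.61, ABCC1 -0.38, ABCC10 -0.83, ABCC3 -0.27, ABCD4 -1.28 and ABCF3 -0.61. Leaving out one replicate at a time gave ABCA1 -0.016 to 0.14, ABCA5 -0.79 to 0.0022, ABCA13 -0.31 to 0.013, ABCB8 -0.13 to 0.40, ABCC10 -0.23 to 0.34, ABCD2 -0.45 to 0.59, ABCD4 -0.29 to 0.47 and ABCF1 -0.42 to 0.33. ABCC2, ABCA4 and ABCC4 kept their direction in every refit. Where a control was left out, the lone control was taken to vary like the sorted libraries. Counting limits the members with few counts, and depth was lowest in the family for sorted library 3.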

Other observations

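Genes with very few counts were detected unevenly across libraries. Rows with 1 to 10 counts numbered 4420, 3294 and 2945 in sorted libraries 1, 2 and 3, and 5260 and 4243 in controls 2 and 3. Of the 6 family members with counts below the filter, ABCA6, ABCA10, ABCA12 and ABCB11 had counts in sorted library 1 and control 2 and in no other library, a pattern shared by 233 genes of the table. ABCA9 and ABCC11 had counts in control 2 alone, as did 1416 genes, against 944 in control 3 alone. PROM1 showed the same pair of libraries. The libraries in which such genes were counted differ in number and in group, and no cause was tested.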
